A study of Arabidopsis thaliana with 4 samples.

Results

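FD is 1 gene, AT4G35900 on chromosome 4, and a single probe set, paired with no other gene, measures it on the array. It is 1 of 13356 genes that the array's annotation pairs with a probe set of their own. Transcript levels had been measured in total RNA of dissected shoot apices of wild-type Arabidopsis thaliana, accession Col-0, on 1 oligonucleotide array per sample. The 2 samples called SD30 came from plants grown for 30 days in short days, and the 2 samples called SD30_LD7 from plants that had the same 30 short days and then 7 long days. No mutant, transgene or chemical treatment is named for either group. The shifted plants were also 7 days older, so day length and age cannot be told apart here. Separate plantings are not stated for the samples of a group, so the p-values cover the spread between these samples alone, and it may be technical.

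FD is a transcription factor of the basic leucine zipper (bZIP) family, in the group A branch that also holds the abscisic acid response factors. In long days the FT protein, made in the leaf, moves through the phloem to the shoot apex, where it acts with FD through 14-3-3 proteins to switch on flowering genes such as SOC1, FUL and AP1. TFL1, a relative of FT, uses the same partner to hold these genes back, and FD is known to be transcribed at the apex of young vegetative plants before FT arrives.

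FD signal was about 2-fold higher after the shift to long days. In short days it had an intensity of 234.9 in replicate 1 and 207.5 in replicate 2, and after the shift 414.8 and 512.3. Both short day arrays lay below both shifted arrays, with 179.9 intensity units between the groups, against a range of 27.4 within the short day group and 97.5 within the shifted group. Such a gap with the shifted arrays on top was found for 27.6 percent of the 15922 probe sets tested, so it does not set FD apart. The group means were 221 ± 19.4 and 464 ± 68.9 (SD, n = 2 each).

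**Figure D1:**
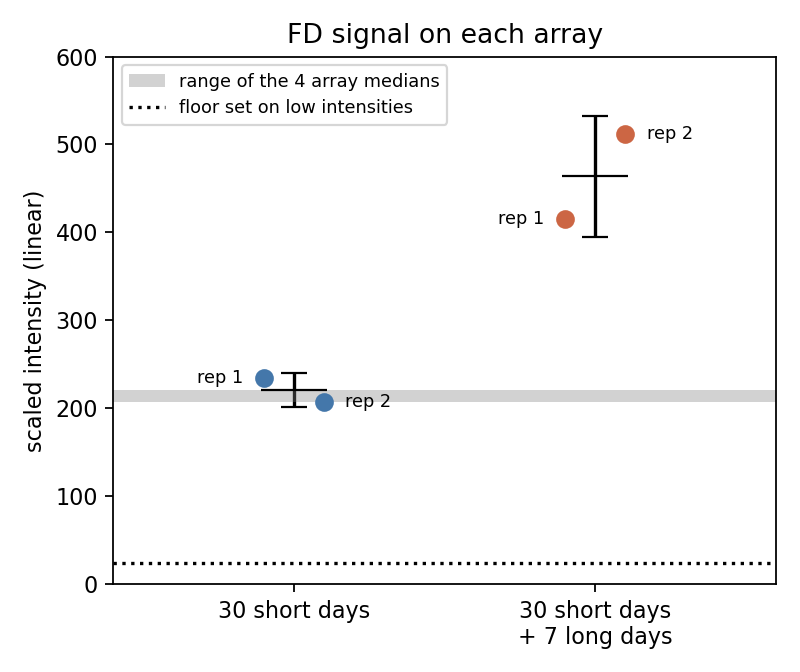
Scaled intensity of the FD probe set (vertical axis, linear, from 0) on each of the 4 arrays, with the mean and SD of each group in black; the grey band spans the medians of the 4 arrays and the dotted line is the floor of 23.5 set on low intensities. The short day arrays lie at 234.9 and 207.5, next to the array medians, and the shifted arrays at 414.8 and 512.3.

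The size of the rise can be read from each pair of arrays. Shifted replicate 1 was 1.77-fold above short day replicate 1 and 2.00-fold above short day replicate 2, and shifted replicate 2 was 2.18-fold and 2.47-fold above them. Replicates of a group differed by less, 1.13-fold in short days and 1.24-fold after the shift. In the limma model fitted over all probe sets, the log2 difference was 1.06 ± 0.16 (SE), a fold of 2.09 with a 95% interval of 1.64 to 2.66, and it passed with an adjusted p of 0.00069. The model called 1083 of the probe sets tested higher after the shift, or 6.80 percent, and FD was among these, and it called 1305 lower. This split moved with the scaling, to 689 higher and 1557 lower with the arrays scaled to a set of reference genes and to 1302 higher and 1049 lower with each array centred on its median. Of the called rises 282, FD included, were at least as large as that of FD and 801 were smaller. An exact permutation test of FD alone could not have gone below p = 0.33, two-sided, with 6 ways to split 4 arrays into 2 and 2, so the call rests on the spread shared over all probe sets. In bulk tissue, more cells that hold FD transcript and more transcript per cell cannot be told apart.

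The FD signal was well clear of the dim end of the array in every sample. It was 10.0-fold and 8.83-fold above the floor of 23.5 on the short day arrays, and 17.7-fold and 21.8-fold above it on the shifted arrays, so the floor touched none of its values. Relative to the median of its own array, FD was at 1.10 and 0.941 times that median in short days and at 2.00 and 2.43 times after the shift. FD replicates were somewhat less tight than those of the median probe set. Its pooled SD within groups was 0.18 on the log2 scale, against a median of 0.13 over the probe sets tested, which placed it at percentile 66.9.

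**Figure D2:**
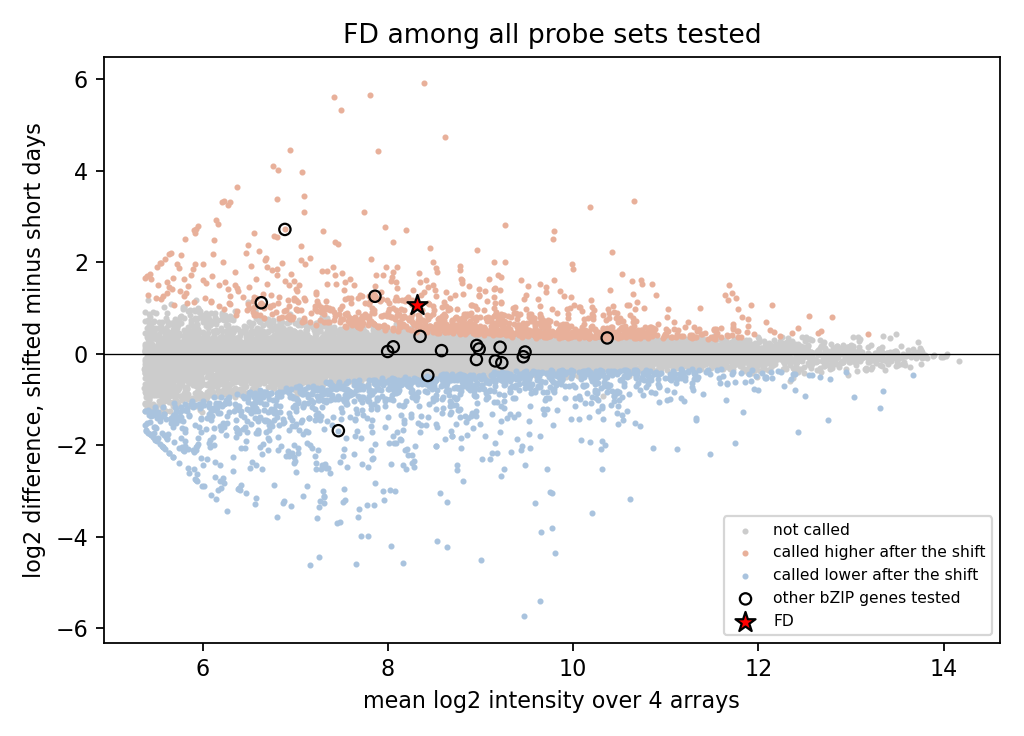
Log2 difference between shifted and short day apices (vertical axis) against the mean log2 intensity over the 4 arrays (horizontal axis) for the 15922 probe sets tested, with FD as a star and the other bZIP genes as circles; coloured points were called. FD lies at a difference of 1.06, where 1.80 percent of the probe sets had a difference as high or higher.

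FD also rose when the arrays were scaled to other genes. Measured within each array against the mean of 8 genes listed as steady references, the log2 ratio of FD went from -2.60 and -2.89 in short days to -1.92 and -1.61 after the shift. Only its change is read, since signals of different probe sets are not on 1 scale, and the difference between the group means was 0.98, with an SD of 0.20 in short days and 0.21 after the shift. With all arrays scaled in this way limma called FD higher (adjusted p = 0.0019). None of the 8 reference genes was called by limma, with log2 differences from -0.20 for AT2G32170 to 0.25 for AT2G28390 (adjusted p = 0.20), and the smallest unadjusted p among them was 0.052, for AT5G46630 (log2 difference 0.22, adjusted p = 0.19).

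The arrays had been scaled to a common level before deposit, so their likeness in level was set beforehand. The array medians lay between 206.95 and 220.5. The 3' to 5' ratio of the actin control probe sets, which reflects RNA integrity and labelling, was 6.51 and 5.72 in the short day samples against 8.27 and 4.64 in the shifted ones, and those of GAPDH and ubiquitin also overlapped between the groups, at 1.57 to 2.65 and 2.36 to 3.44 over the 4 arrays. The part of RNA integrity in the FD difference was not tested.

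Group A has 13 bZIP genes in Arabidopsis, of which the annotation names 4 and 3 were bright enough to test. FD and EEL rose and AT5G44080 was not called, with all 3 differences above 0. Over all probe sets tested 6.80 percent were called higher, and the median log2 difference was -0.0021. FD was itself chosen with earlier results known, so nothing is read from this count. EEL, which in seeds binds the same promoter elements as ABI5, was at 154.7 and 146.0 in short days and at 366.0 and 353.5 after the shift, a log2 difference of 1.26 ± 0.16 (SE, limma adjusted p = 0.00022). All its shifted values were above its short day values, as for 27.6 percent of the probe sets tested. The EEL interval of 0.90 to 1.62 overlaps that of FD, 0.71 to 1.41. AT5G44080, listed as bZIP13, had 451.7 and 483.6 against 488.3 and 577.5, a log2 difference of 0.18 with an interval of -0.11 to 0.47 (adjusted p = 0.43). Its interval ends below that of FD begins, though the difference between the 2 genes was not tested. AT5G42910, listed as bZIP15, was too dim to test, with 27.4 and 20.6 against 24.7 and 11.5. FDP, the closest relative of FD, was not analysed here, nor were ABI5 and the ABF genes.

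Of 53 bZIP genes of other groups on the list, the annotation names 20 and 16 were tested. BZIP61, HYH and BZIP53 rose, bZIP42 fell, and 12 were not called. BZIP61 had the largest difference, from 69.2 and 30.8 to 264.1 and 350.5 (log2 difference 2.72 ± 0.34, adjusted p = 0.00014). Its size leans on its dim short day values, and was 3.30 without SD30 replicate 1 and 2.14 without SD30 replicate 2. When the floor was raised to the 40th percentile of all values it was 1.58 and missed the threshold (adjusted p = 0.066). HYH, the close relative of the light response factor HY5, went from 84.7 and 53.7 to 154.0 and 139.1 (1.12 ± 0.28, adjusted p = 0.017). HYH missed the threshold on leaving out SD30 replicate 2 (0.13), SD30_LD7 replicate 1 (0.13) or SD30_LD7 replicate 2 (0.088), and its difference was 0.52 (adjusted p = 0.073) with that higher floor. BZIP53, a regulator of seed storage and amino acid genes, rose from 1212.2 and 1132.1 to 1478.1 and 1505.1, a small difference of 0.35 ± 0.10 (adjusted p = 0.040). When any 1 array was removed BZIP53 missed the threshold, at 0.11 without SD30 replicate 1, 0.21 without SD30 replicate 2, 0.14 without SD30_LD7 replicate 1 and 0.18 without SD30_LD7 replicate 2. bZIP42 fell from 292.1 and 342.7 to 122.2 and 79.9 (-1.68 ± 0.23, adjusted p = 3e-04). With that higher floor the bZIP42 difference was -1.50 and missed the threshold (limma adjusted p = 0.059).

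**Figure D3:**
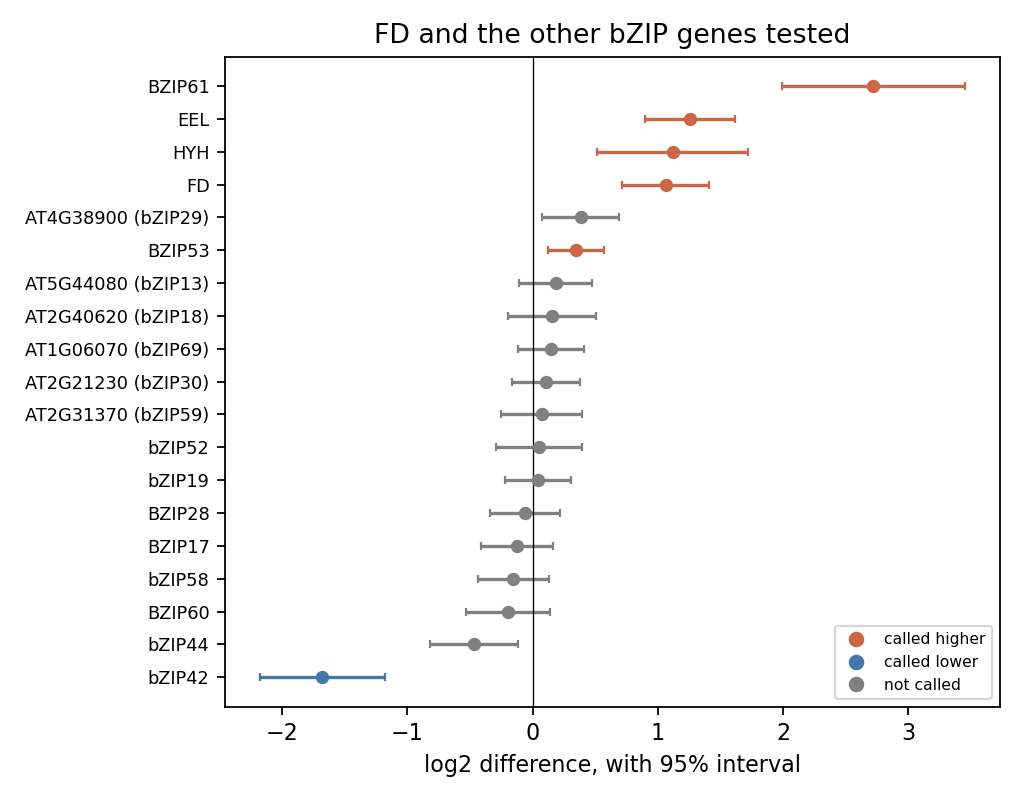
Log2 difference between shifted and short day apices with its 95% interval (horizontal axis) for FD and the 18 other bZIP genes tested, in order of size and coloured by call. FD at 1.06 is the fourth of 19 from the top, below BZIP61, EEL and HYH, and most of the 19 tested genes lie near 0.

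Of the 18 bZIP genes tested beside FD, 4 were called higher and 1 lower, and their median log2 difference was 0.09. Over all probe sets tested the median was -0.0021, with 6.80 percent called higher and 8.20 percent lower. FD, BZIP61, EEL and HYH had differences above 1 in the processing reported.

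Across the 15 gene lists used here, 41 genes were tested, and 8 rose and 5 fell; over all probe sets tested 15.0 percent were called in either direction. The lists were chosen with earlier results known, so nothing is read from that count.

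Of the proteins that act with FD, none could be followed. FT, TSF, TFL1, BFT and MFT, the 13 listed 14-3-3 genes and the 3 listed kinases that phosphorylate FD have no named probe set and were not analysed here. The 1 named member of the FT and TFL1 family, ATC, had 2.5 and 3.4 on the short day arrays and 1.8 and 3.0 on the shifted arrays, all below the floor of 23.5, so neither group gave a usable level.

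Of 15 genes listed as targets of the FT and FD complex or as close relatives of such targets, the annotation names 4, all MADS box genes. AGL42, a relative of SOC1 that promotes flowering, rose with FD, from 140.3 and 163.3 to 394.5 and 525.0. Its shifted values were all above its short day values, as for 27.6 percent of the probe sets tested. The log2 difference was 1.59 ± 0.18 (SE, adjusted p = 7.7e-05). The same difference missed the threshold when the floor was raised to the 40th percentile (limma adjusted p = 0.082). AGL24, a promoter of flowering that acts with SOC1, was not called, with 899.0 and 992.6 against 977.8 and 974.7. Its difference of 0.05 had an interval of -0.19 to 0.28 (adjusted p = 0.84) and changed sign with the arrays scaled to the reference genes (-0.04). AGL71, another relative of SOC1, was too dim to test, going from 1.4 and 6.1 to 29.5 and 33.3. Only the shifted values of AGL71 were above the floor. AGL72 was also too dim, between 11.8 and 32.9 over the 4 arrays. SOC1, FUL, AP1 and LFY were not analysed here.

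Of 12 genes listed as repressors that act on FT, FD or their targets, 2 are named and 1 was tested. SMZ, an AP2-like repressor of FT, fell from 126.9 and 155.1 to 50.9 and 57.6 while FD rose. The log2 difference of SMZ was -1.37 ± 0.26 (adjusted p = 0.0037), and its call was lost without SD30 replicate 2 (0.061). The SMZ difference was -0.46 and also missed the threshold (adjusted p = 0.19) when the floor was raised to the 40th percentile. SNZ, its relative, was too dim to test, with 52.1 and 25.7 against 27.1 and 4.1.

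Of 9 genes listed for the induction or transport of FT, 2 are named, and they moved in opposite directions. GI, a clock-controlled activator of the FT pathway, fell from 665.2 and 875.4 to 300.6 and 347.2 (log2 difference -1.24 ± 0.15, adjusted p = 0.00014). At the same difference, GI missed the threshold when the floor was raised to the 40th percentile (limma adjusted p = 0.1). AT1G69570, listed as CDF5, of a family that represses CO, rose from 60.1 and 85.9 to 140.0 and 147.3 (1.00 ± 0.26, adjusted p = 0.022). AT1G69570 missed the threshold on leaving out SD30 replicate 1 (0.14), SD30_LD7 replicate 1 (0.10) or SD30_LD7 replicate 2 (0.14), and its difference was 0.50 (adjusted p = 0.036) with the higher floor. Transcripts of this pathway cycle over the day, and the hour of harvest was not stated in the labels. The 8 genes listed for age and meristem competence, SPL9 and SPL15 among them, have no named probe set.

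**Figure D4:**
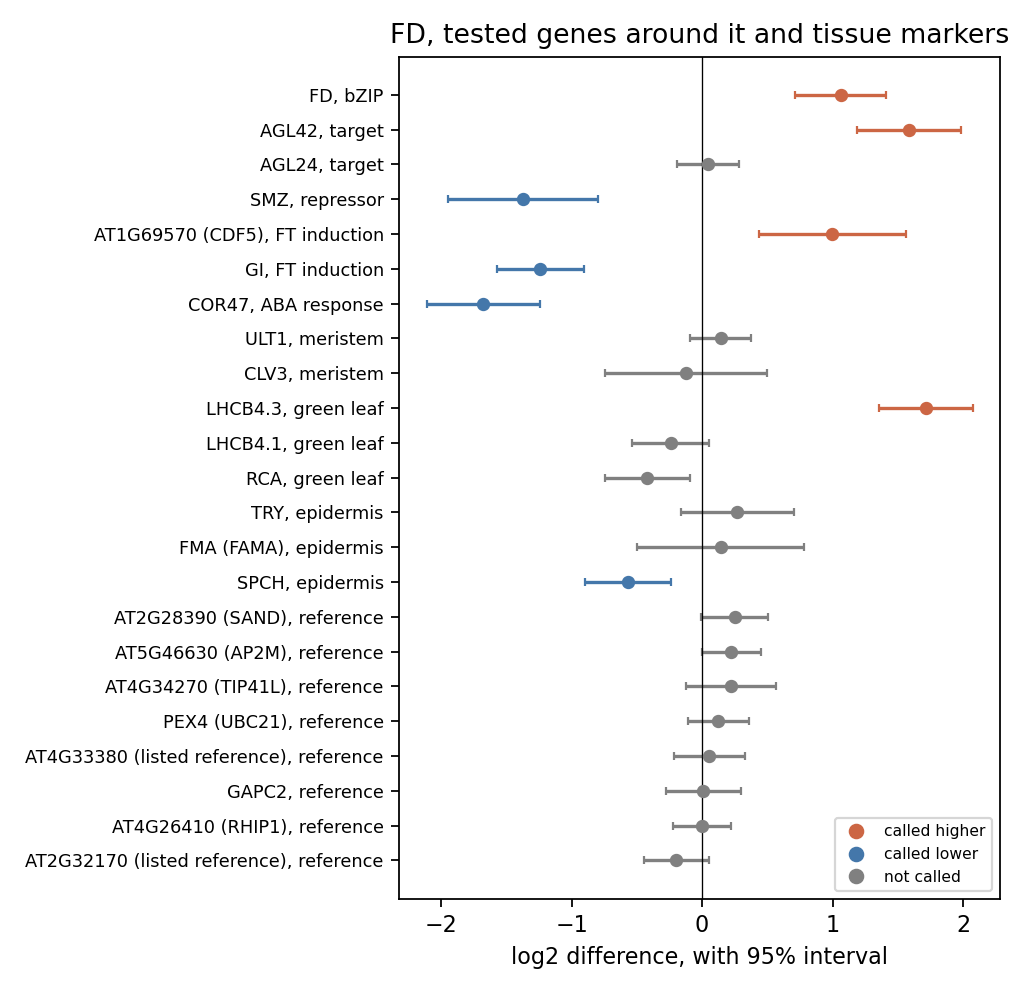
Log2 difference between shifted and short day apices with its 95% interval (horizontal axis) for FD and for the tested genes of the lists around it, followed by meristem, green leaf and epidermal markers and the reference genes. LHCB4.3, AGL42, FD and AT1G69570 lie on the right at 1.72, 1.59, 1.06 and 1.00. COR47, SMZ and GI lie on the left at -1.68, -1.37 and -1.24, and the reference genes lie near 0.

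Group A bZIP factors bind elements found in promoters that respond to abscisic acid, and of 14 listed response genes the annotation names 1. COR47, a dehydrin gene of cold and drought, fell from 418.2 and 314.5 to 123.3 and 104.4 (log2 difference -1.68 ± 0.20, adjusted p = 1e-04), opposite in direction to FD and EEL. At the same difference, COR47 missed the threshold when the floor was raised to the 40th percentile (limma adjusted p = 0.075). With 1 gene measured, nothing is said of the response as a whole.

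The make-up of the dissected tissue was checked with markers. Of 11 shoot meristem markers 2 are named, and neither was called. CLV3, the gene of a signalling peptide of the stem cells, had 72.9 and 103.5 against 72.6 and 87.9 (log2 difference -0.12 ± 0.28, adjusted p = 0.84, or 0.07 with quantile normalization). ULT1, a regulator of meristem size, was at 1019.7 and 986.4 against 1056.3 and 1162.9 (0.14 ± 0.11, adjusted p = 0.45). Their summed intensity was 1090 and 1093 on the short day arrays against 1129 and 1251 on the shifted ones. This sum is set mostly by ULT1. The ULT1 values were higher on the shifted arrays without overlap, as were those of 27.6 percent of the probe sets tested, while those of CLV3 overlapped. STM and WUS, which define the meristem, were not analysed here.

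Of 14 green leaf markers 3 are named. LHCB4.3, an antenna protein gene, rose from 126.7 and 131.5 to 435.3 and 413.1 (1.72 ± 0.16, adjusted p = 1.7e-05). RCA, which encodes the activase of Rubisco, had -0.42 ± 0.15 (adjusted p = 0.085) and LHCB4.1 had -0.24 ± 0.13 (adjusted p = 0.29), and the values of both were lower on the shifted arrays without overlap, as were those of 26.9 percent of all probe sets tested. The RCA difference passed with the replicate number as a block (adjusted p = 0.024) and without SD30 replicate 2 (0.041). The summed intensity of the 3 was 12410 to 15640 in short days and 11200 to 12110 after the shift. This sum is set mostly by LHCB4.1 and RCA and is no measure of the share of leaf tissue. Of 8 trichome and guard cell markers 4 are named and 3 were tested, and SPCH, which starts the stomatal lineage, fell by 0.57 on the log2 scale (adjusted p = 0.026), with 418.6 and 359.5 against 251.9 and 272.2. TRY, which acts in trichome patterning, and FMA, which acts late in the stomatal lineage, were not called, at 0.27 ± 0.20 (adjusted p = 0.44) and 0.14 ± 0.29 (adjusted p = 0.82). On leaving out any 1 array SPCH missed the threshold, the adjusted p being lowest without SD30 replicate 2 (0.078) and highest without SD30 replicate 1 (0.20), with 0.15 and 0.089 without SD30_LD7 replicates 1 and 2. The summed intensity of the 4 was 575.8 to 657.7 in short days and 501.1 to 523.5 after the shift, lower mostly through SPCH, while the log2 differences of the 3 tested had a median of 0.14 and a mean of -0.05. MUTE, the named marker of this list that was too dim to test, had 23.3 and 13.1 against 4.5 and 3.2, all below the floor of 23.5. No vascular marker is named, and the part of tissue make-up in the FD difference was not tested.

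Genes with a profile like that of FD were sought over the 4 arrays. Each log2 profile was taken relative to its own mean, and likeness was the root mean square distance to FD. Among the tested probe sets paired with 1 gene, the 8 nearest were AT4G30470, AT4G18970, AT5G60800, AT3G12710, ALN, AT1G08230, AT3G05900 and AT5G20740, at distances of 0.03 to 0.07. The nearest, AT4G30470, went from 429.7 and 377.1 to 795.1 and 972.8. ALN, the gene of allantoinase, an enzyme of purine breakdown, had 139.1 and 125.2 against 247.0 and 333.4 (distance 0.05). All 8 share the order of FD over the arrays, with short day replicate 2 lowest and shifted replicate 2 highest, which is what the measure selects. With 4 arrays many profiles come close, and 36 probe sets lay within a distance of 0.1 and 234 within 0.2, or 1.47 percent of those tested. These counts take in unnamed probe sets, which the list of nearest genes leaves out.

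The nearest genes of FD on chromosome 4 with a named and tested probe set were AT4G35880 and AT4G35870 on the side of lower locus numbers, and AT4G35905 and AT4G35940 on the other. Their differences were smaller than that of FD. AT4G35905, the next protein-coding gene, went from 741.9 and 628.2 to 847.2 and 964.6, a log2 difference of 0.41 ± 0.12 that just passed (limma adjusted p = 0.048). It missed the threshold on leaving out any 1 array, SD30 replicate 1 (0.081), SD30 replicate 2 (0.30), SD30_LD7 replicate 1 (0.087) or SD30_LD7 replicate 2 (0.31), and with the arrays scaled to the reference genes (0.18). The other 3 neighbours were not called, with log2 differences of 0.32 for AT4G35880, 0.21 for AT4G35870 and 0.18 for AT4G35940. The gene models of these neighbours do not overlap that of FD in the TAIR10.1 gene table, and the differences between them and FD were not tested.

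The FD call held without each array in turn, with a log2 difference that was lowest without SD30_LD7 replicate 2 (0.91) and highest without SD30_LD7 replicate 1 (1.21) and adjusted p from 0.0043 to 0.034. It was lost in 2 of the processings tried, with no filter on dim probe sets (adjusted p = 0.14) and when the floor was raised to the 40th percentile (0.10), in which the FD difference and its values stayed the same at 1.06.

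**Figure D5:**
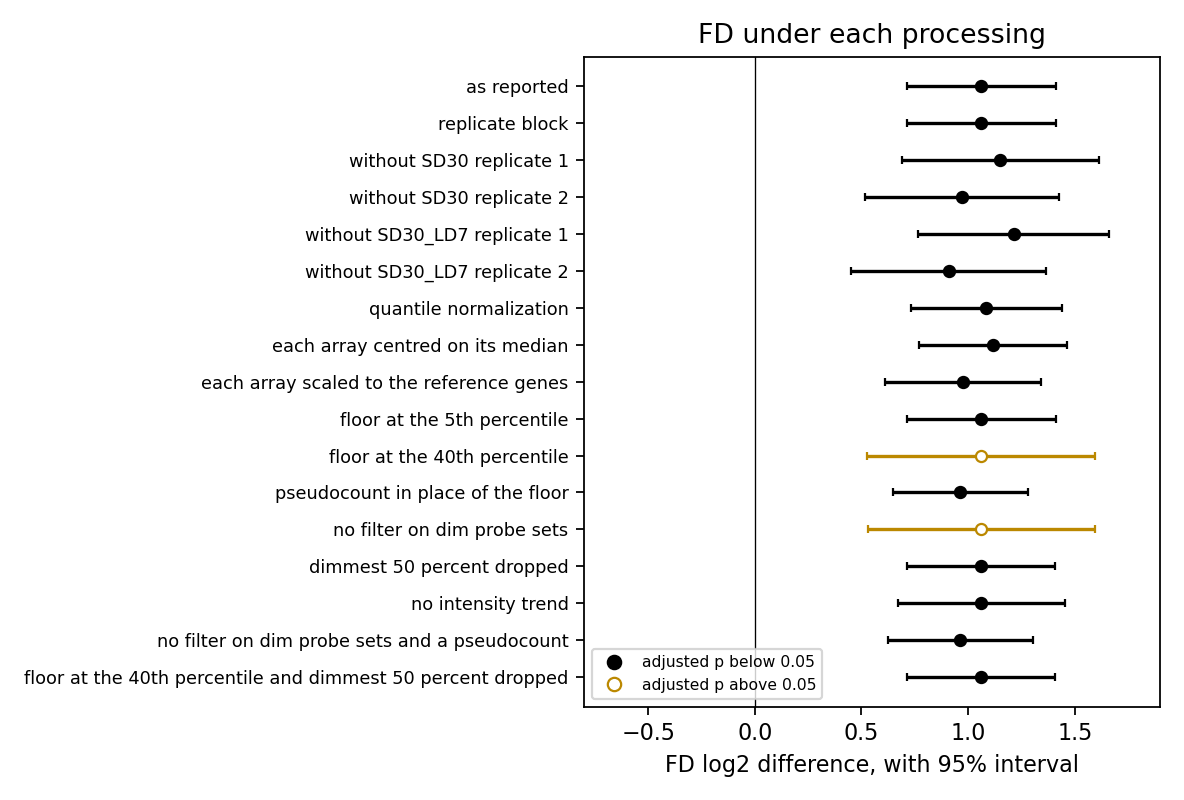
Log2 difference of FD between shifted and short day apices with its 95% interval (horizontal axis) under the processing reported and each alternative; open symbols missed the threshold of 0.05 after adjustment. All estimates lie between 0.91 and 1.21 and no interval reaches 0.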

How the data were processed

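The authors deposited linear intensities, 1 value for each array and each of 22746 probe sets and 64 controls. Means trimmed by 2 percent at each end were 500.033 to 500.036, so the arrays had been scaled to a common level before deposit. Their signal software is not stated in the labels. Precision is limited by the number of arrays.

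Probe sets were named through the platform annotation and the TAIR10.1 gene table. It paired 13513 with 1 gene and 503 with several, and 8730 are unnamed here. Values below the 20th percentile, 23.5, were raised to it, and log2 was taken. The dimmest 30 percent of probe sets were dropped, which left 15922. The comparison used limma 3.58.1 under R 4.3.3 (two-sided, intensity trend, 2 residual and 9.90 prior degrees of freedom), with Benjamini-Hochberg adjustment over all probe sets tested and a threshold of 0.05. Python 3.11.15 with matplotlib 3.10.9 drew the figures.

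FD and the 15 lists, with 202 genes of which 51 are named and 41 tested, were chosen with earlier results of these data known. Of several probe sets of a gene, the brightest was used. Genes named were all tested members of the bZIP group A and FT pathway lists, the called members of the other lists (or the 2 with the smallest p), the 8 nearest profiles and 2 neighbours on each side. TRY, FMA, the other green leaf markers, untested list members and reference genes given as a range were added after their values were seen. Alternatives tried were leaving out each array, a replicate block, other scalings, floors and filters, a pseudocount of 32 and no intensity trend.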

Additional observations from a re-analysis of the deposited data

How the results depend on the processing

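The FD log2 difference of 1.06 kept its direction under all alternatives run and its call in all but 2. With no filter on dim probe sets it was 1.06 with an adjusted p of 0.14, and when the floor was raised to the 40th percentile 1.06 with 0.10. The prior degrees of freedom of limma there fell from 9.90 to 0.716 and 0.901. In alternatives chosen after seeing the data, FD passed with no filter and a pseudocount (0.96, adjusted p = 0.0082) and with that floor and the dimmest 50 percent dropped (0.00043). Leaving out 1 array gave 0.91 to 1.21 for FD. The labels state no pairing of the same-numbered samples. The deviations of these samples correlated at 0.05 across probe sets. The replicate block gave 1.06 for FD (adjusted p = 0.00061), 2741 calls over all probe sets and 14 list members called.

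Against 2388 calls over all probe sets, leaving out 1 array gave 1058 to 1494, the floor at the 40th percentile 443, no filter 152, no filter with a pseudocount 1558, no intensity trend 1532 and a 2-fold minimum 912. Against 13 called list members, these were 0 with no filter, 3 when that higher floor was used, and 7 with the dimmest 50 percent dropped, under either floor, where several members were not tested. Beside limma's count of 0, 15 list members had an unadjusted p below 0.05 in that fit. The AGL24 difference was -0.038 with the arrays scaled to the reference genes and -0.024 to 0.12 without 1 array, and the CLV3 difference 0.071 with quantile normalization and -0.37 to 0.13 without 1 array. Other scalings moved the median over all probe sets by at most 0.09 on the log2 scale.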
